A study of Mus musculus with 10 samples.

Results

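The intercalated disc is the cell border across which cardiomyocytes are joined end to end, and the 10 genes described here encode structural parts of it: Des, Dsp, Pkp2, Jup, Dsg2, Dsc2, Cdh2, Ctnna3, Vcl and Tjp1. The genes were matched by symbol to a list of intercalated disc and desmosome genes that sets no threshold on counts but was drawn up with earlier results of these data known, and all 10 were found among the 57185 genes with a value. All 10 also passed the filter on low counts that left 13452 genes for testing. Tissue was taken from the apex side of the ventricles, labelled left ventricle, and polyadenylated transcripts were sequenced as 1 library per mouse. The MLPKO group (5 male mice) is labelled as a knockout of muscle LIM protein (MLP), encoded by Csrp3, and carried RAD floxed/floxed alleles with no recombinase named in the labels, which makes it the control group. The MLPKO-cRADKO group (5 male mice) had the same MLP knockout and floxed RAD alleles and in addition MYH6-MerCreMer, a tamoxifen-induced recombinase that is active in cardiomyocytes, so that the deletion of RAD was directed to cardiomyocytes and not to the other cells of the heart. Both groups received tamoxifen at 10 weeks of age in a single dose of 100 mg per kg and are labelled 16 weeks of age and 1 month after tamoxifen. These times do not add up exactly, so the time since tamoxifen is uncertain. The control mice thus received the drug but, by the labels, no recombinase, and an effect of the recombinase itself cannot be told apart from that of RAD loss.

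In the intercalated disc, desmosomes tie the desmin filaments of neighbouring cells together and adherens junctions tie their actin filaments together. In the mammalian heart the 2 kinds of junction are partly merged into a mixed structure called the area composita. The desmosomal cadherins desmoglein-2 (Dsg2) and desmocollin-2 (Dsc2) span the membrane, plakoglobin (Jup) and plakophilin-2 (Pkp2) bind their tails, and desmoplakin (Dsp) links this plaque to desmin (Des). N-cadherin (Cdh2), alpha-T-catenin (Ctnna3) and vinculin (Vcl) form the actin-linked side, and ZO-1 (Tjp1) is a scaffold protein at junctions. Muscle LIM protein is a protein of the Z-disc, the intercalated disc and other sites in cardiomyocytes, and inherited variants in several desmosomal genes are known to cause arrhythmogenic cardiomyopathy.

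Of the 10 genes, 6 were lower in MLPKO-cRADKO than in MLPKO at an adjusted p under 0.05 in the edgeR quasi-likelihood test and 0 were higher. The 6 genes were Des, Pkp2, Dsp, Vcl, Cdh2 and Jup, and their levels were 58.2% to 77.9% of those in MLPKO. Over all 13452 genes tested, 2.74% were called, 1.8% lower and 0.944% higher. The median log2 fold change was −0.39 over the 10 genes (range −0.78 to 0.15) and 0.011 over all genes tested, of which 47.9% had a log2 fold change below 0. The 4 genes without a call were Ctnna3, Tjp1, Dsg2 and Dsc2, with levels of 86.5% to 111% of those in MLPKO. After scaling to 9 cardiomyocyte marker genes in place of all genes, an alternative chosen after seeing the data, 2 of the 10 genes kept an adjusted p under 0.05, Des with a log2 fold change of −0.62 (edgeR adjusted p = 0.0466) and Dsp with one of −0.29 (edgeR adjusted p = 0.0336). Scaling to these markers raised the median log2 fold change of all genes tested to 0.18 and the number of genes called to 1080.

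The sequences before the transcript starts of 4 of the genes are shown because the data contrast them: Des had the largest fold change of the 10, Jup the smallest p, Vcl was the 1 gene of the 10 with a serum response factor box in this stretch, and Tjp1 was not called. Each is the 300 bases before the start of the GENCODE canonical transcript on GRCm39, written along the gene's strand. Capitals mark matches on either strand to an SRF (CArG) box, a MEF2 site, a GATA word (GATAA or GATAG, after A or T) or an M-CAT word (CATTCC), which are sites known for heart muscle regulators.
Des, chr1:75336567-75336866, + strand: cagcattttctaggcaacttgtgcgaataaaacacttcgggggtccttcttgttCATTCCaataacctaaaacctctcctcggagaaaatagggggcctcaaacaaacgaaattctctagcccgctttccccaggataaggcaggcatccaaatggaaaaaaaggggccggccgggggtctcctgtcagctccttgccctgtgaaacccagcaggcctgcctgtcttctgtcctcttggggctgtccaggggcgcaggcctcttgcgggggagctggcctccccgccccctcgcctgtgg
Jup, chr11:100288662-100288961, - strand: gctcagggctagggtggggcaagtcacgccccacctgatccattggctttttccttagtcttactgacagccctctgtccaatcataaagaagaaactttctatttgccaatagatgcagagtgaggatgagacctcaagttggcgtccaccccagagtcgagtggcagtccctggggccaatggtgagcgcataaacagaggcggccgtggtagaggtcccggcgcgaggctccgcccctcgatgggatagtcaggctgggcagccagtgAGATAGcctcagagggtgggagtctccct
Vcl, chr14:20979166-20979465, + strand: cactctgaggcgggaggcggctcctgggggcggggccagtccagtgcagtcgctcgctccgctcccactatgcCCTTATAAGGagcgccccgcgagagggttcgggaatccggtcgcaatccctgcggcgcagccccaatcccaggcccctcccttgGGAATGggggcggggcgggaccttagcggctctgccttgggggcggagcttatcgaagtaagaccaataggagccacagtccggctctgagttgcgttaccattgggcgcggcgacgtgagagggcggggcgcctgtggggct
Tjp1, chr7:65021036-65021335, - strand: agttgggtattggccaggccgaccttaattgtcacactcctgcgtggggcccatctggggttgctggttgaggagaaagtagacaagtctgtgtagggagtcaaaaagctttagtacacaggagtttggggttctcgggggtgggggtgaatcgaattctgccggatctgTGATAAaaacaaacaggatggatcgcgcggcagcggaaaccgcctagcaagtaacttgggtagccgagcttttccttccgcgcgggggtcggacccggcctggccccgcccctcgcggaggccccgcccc

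The Des sequence held 1 M-CAT word, 246 to 241 bases before the start. The Jup sequence held 1 GATA word, 29 to 24 bases before the start. The Vcl sequence held the SRF box CCTTATAAGG, 227 to 218 bases before the start, and 1 M-CAT word, 143 to 138 bases before it. In Tjp1, a GATA word lay 130 to 125 bases before the start. Among 21769 stretches of the same length before protein-coding transcripts, 1.7% held an SRF box, 3.52% a MEF2 site, 31.2% a GATA word and 14.6% an M-CAT word, and an E-box (CANNTG, not capitalized) was found in 71.5%. No MEF2 site was found in this stretch in any of the 10 genes. Of the genes not printed, Dsg2 and Ctnna3, which were not called, also held an M-CAT word. A GATA word was also found in Pkp2, which was called, and in Dsg2 and Dsc2, which were not. Dsp and Cdh2, both called, held no SRF, MEF2, GATA or M-CAT match. Neither the M-CAT nor the GATA word was therefore limited to called genes or to the others. The motifs were picked with the results known, and a match to letters is a description and not evidence that a factor binds there.

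Des (chromosome 1, 75320511 to 75345223, + strand) encodes desmin, the main intermediate filament protein of muscle. Its levels in CPM (counts per 1000000 counts of the library, with library sizes scaled by TMM) were 3245, 5110, 3054, 2747 and 3509 in MLPKO mice 1 to 5 and 2382, 1956, 2030, 2013 and 1903 in MLPKO-cRADKO mice 1 to 5. The lowest MLPKO mouse lay above the highest MLPKO-cRADKO mouse, and MLPKO mouse 2 stood high within its group. The means were 3533 ± 924 CPM (SD, n = 5) and 2057 ± 188 CPM (SD, n = 5). This was a log2 fold change of −0.78 (standard error 0.15, 95% interval −1.10 to −0.46), with an edgeR adjusted p of 0.0247. Without MLPKO mouse 2 it was −0.61. The edgeR adjusted p of Des stayed under 0.05 in 4 of 10 fits with 1 mouse left out. Of the 10 genes, 6 had no overlap between the genotypes, the same 6 that were called. Over all genes tested the share without overlap was 6.62%, 3.97% with MLPKO-cRADKO lower. The calls and the separation come from the same values, so the separation adds no further support to the calls.

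Dsp (chromosome 13, 38335230 to 38382553, + strand) encodes desmoplakin, the plaque protein that anchors desmin filaments to the desmosome. MLPKO mice had 1950, 2119, 1821, 1988 and 2228 CPM and MLPKO-cRADKO mice had 1455, 1462, 1338, 1532 and 1574 CPM. The genotypes did not overlap, and the coefficient of variation was 7.76% in MLPKO and 6.11% in MLPKO-cRADKO. The log2 fold change was −0.46 (standard error 0.072, 95% interval −0.61 to −0.30, edgeR adjusted p = 0.0158). Dsp and Jup were the genes that stayed under the threshold whichever single mouse was left out (10 of 10 fits each).

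Jup (chromosome 11, 100259784 to 100291103, - strand) encodes plakoglobin, which sits in desmosomes and adherens junctions alike. The counts were 379, 376, 360, 332 and 360 CPM in MLPKO and 288, 269, 283, 290 and 278 CPM in MLPKO-cRADKO. Jup varied least between mice among the 10 genes, with a coefficient of variation of 5.19% in MLPKO and 3.02% in MLPKO-cRADKO, and the lowest MLPKO mouse was above every MLPKO-cRADKO mouse. Its mean fell from 361 ± 18.8 CPM (SD, n = 5) to 282 ± 8.50 CPM (SD, n = 5), a log2 fold change of −0.36 (standard error 0.054, 95% interval −0.48 to −0.24, edgeR adjusted p = 0.0150). Under the scaling to cardiomyocyte markers the log2 fold change of Jup was −0.19 with an edgeR adjusted p of 0.164.

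Pkp2 (chromosome 16, 16031144 to 16090586, + strand) encodes plakophilin-2, which binds the desmosomal cadherins and desmoplakin in the plaque. MLPKO mice had 240, 322, 191, 181 and 269 CPM, and MLPKO-cRADKO mice had 174, 162, 134, 146 and 157 CPM. MLPKO mice 3 and 4 were only just above the highest MLPKO-cRADKO mouse, and MLPKO mouse 2 was the highest, as it was for Des. Pkp2 had a log2 fold change of −0.64 (standard error 0.14, 95% interval −0.96 to −0.32, edgeR adjusted p = 0.0421). Pkp2 had the adjusted p closest to the threshold of the 6 called genes and kept it under 0.05 in 3 of 10 fits with 1 mouse left out.

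**Figure D1:**
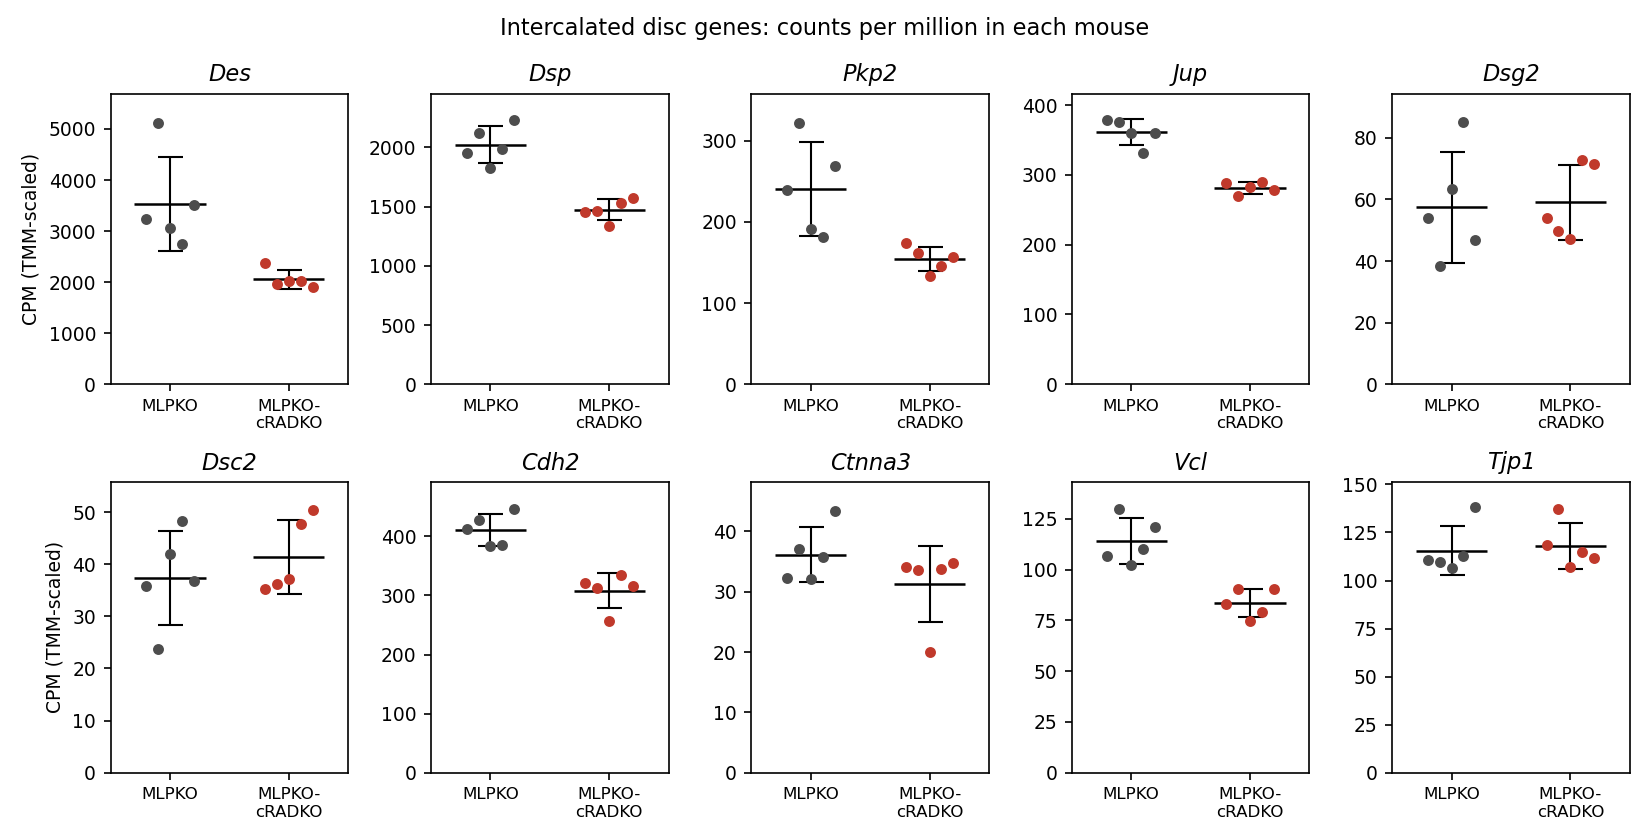
TMM-scaled CPM (linear axes from 0) of each of the 10 intercalated disc genes in the 5 MLPKO (grey) and 5 MLPKO-cRADKO (red) mice, 1 point per mouse in the order of mouse number, with the mean (long bar) and SD (error bar). The genotypes do not overlap for Des, Dsp, Pkp2, Jup, Cdh2 and Vcl and overlap for Dsg2, Dsc2, Ctnna3 and Tjp1.

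The desmosomal cadherins Dsg2 (chromosome 18, 20691074 to 20737581, + strand) and Dsc2 (chromosome 18, 20163675 to 20192717, - strand), the adhesive membrane proteins of the cardiac desmosome, did not pass the test. Dsg2 was at 53.9, 38.3, 63.3, 85.1 and 46.9 CPM in MLPKO and at 54.1, 49.8, 47.1, 72.7 and 71.5 CPM in MLPKO-cRADKO. Dsc2 was at 35.9, 23.7, 42.0, 48.3 and 36.8 CPM in MLPKO and at 35.3, 36.3, 37.1, 47.6 and 50.3 CPM in MLPKO-cRADKO. The genotypes overlapped over most of their range for both genes, and the same mice were high for both: MLPKO mouse 4 had the highest and MLPKO mouse 2 the lowest value of its group.

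Dsg2 had a log2 fold change of 0.039 (95% interval −0.40 to 0.47, edgeR adjusted p = 0.936) and Dsc2 one of 0.15 (95% interval −0.22 to 0.51, edgeR adjusted p = 0.669). The interval of Dsg2 includes the log2 fold change of Jup (−0.36), while that of Dsc2 reaches the value of no called gene, and neither shows equal levels in the genotypes. Dsg2 was the most variable of the 10 genes in both genotypes, with a coefficient of variation of 31.2% in MLPKO and 20.6% in MLPKO-cRADKO. In MLPKO the order of the mice for Dsg2 was the exact reverse of their order for Des, from mouse 2 (highest Des, lowest Dsg2) through mice 5, 1 and 3 to mouse 4 (lowest Des, highest Dsg2). In MLPKO-cRADKO the orders were not reversed: mouse 1 had the most Des and the third lowest Dsg2.

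Cdh2 (chromosome 18, 16700793 to 16942381, - strand) encodes N-cadherin, the classical cadherin of the disc. MLPKO mice had 412, 428, 384, 385 and 446 CPM, and MLPKO-cRADKO mice had 321, 313, 256, 334 and 316 CPM. The genotypes were separated by the gap between MLPKO mouse 3 and MLPKO-cRADKO mouse 4, and MLPKO-cRADKO mouse 3 lay below the others of its group. The log2 fold change was −0.41 (standard error 0.078, 95% interval −0.58 to −0.24, edgeR adjusted p = 0.0239), and it was −0.35 without MLPKO-cRADKO mouse 3. Under the scaling to cardiomyocyte markers it was −0.25 with an edgeR adjusted p of 0.0585. The edgeR adjusted p of Cdh2 stayed under 0.05 in 6 of 10 fits with 1 mouse left out.

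Vcl (chromosome 14, 20979449 to 21083758, + strand) encodes vinculin, which couples cadherin and integrin complexes to actin. MLPKO mice had 107, 130, 102, 110 and 121 CPM and MLPKO-cRADKO mice had 83.0, 90.5, 74.6, 79.3 and 90.5 CPM. All MLPKO values were above all MLPKO-cRADKO values, although by a small margin. The log2 fold change was −0.45 (standard error 0.080, 95% interval −0.62 to −0.27, edgeR adjusted p = 0.0216). With 1 mouse left out, the edgeR adjusted p of Vcl stayed under 0.05 in 6 of 10 fits. Exons of Vcl overlap those of Ap3m1 on the opposite strand over 2104 bases, 24.6% of the Vcl exon length, and whether reads were counted by strand is not given in the sources used here. Ap3m1 itself had a log2 fold change of −0.080 (edgeR adjusted p = 0.619). Exon overlap with a lncRNA or unclassified gene on the other strand took up 5.6% of the exon length of Des, 5.56% of Dsp and 3.44% of Dsg2.

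Ctnna3 (chromosome 10, 63265877 to 64846348, + strand) encodes alpha-T-catenin, which is found in heart and testis and binds both cadherin complexes and plakophilin-2. Its values were 32.3, 37.1, 32.1, 35.7 and 43.4 CPM in MLPKO and 34.2, 33.6, 20.1, 33.7 and 34.7 CPM in MLPKO-cRADKO. MLPKO-cRADKO mouse 3 was the lowest, and the other 4 mice of its group lay within the MLPKO range. The log2 fold change was −0.21 (95% interval −0.52 to 0.10, edgeR adjusted p = 0.426), and it was −0.079 without MLPKO-cRADKO mouse 3.

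Tjp1 (chromosome 7, 64945898 to 65177529, - strand) encodes ZO-1, a scaffold that borders gap junctions and is also expressed in endothelial and epithelial cells. The counts were 110, 110, 106, 113 and 138 CPM in MLPKO and 119, 137, 107, 115 and 112 CPM in MLPKO-cRADKO. The genotypes shared the same range, with 1 high mouse in each. Its log2 fold change was 0.029, and of the 4 genes not called it had the narrowest interval (−0.16 to 0.22, edgeR adjusted p = 0.884), which does not reach the estimate of any called gene.

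**Figure D2:**
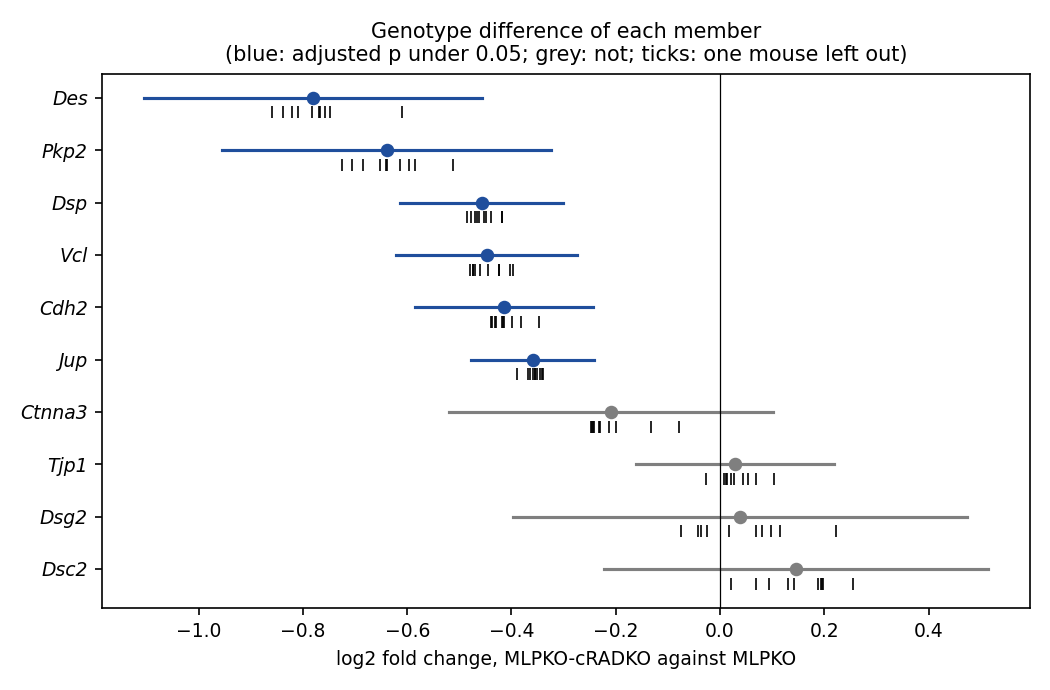
Log2 fold change of each gene, MLPKO-cRADKO against MLPKO, with its 95% interval from the edgeR fit (blue, adjusted p under 0.05; grey, not), and below each line 10 ticks for the value with 1 mouse left out. The 6 blue estimates run from −0.78 for Des to −0.36 for Jup and none of their ticks reaches 0, and the ticks of Dsg2 and Tjp1 lie on both sides of 0.

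The same 6 genes passed with both other tools. With DESeq2, which called 10% of all genes with an adjusted p (6.09% lower and 3.96% higher), the adjusted p was 2.39e-09 for Jup, 1.55e-07 for Dsp, 1.97e-05 for Des, 5.29e-05 for Vcl, 8.35e-05 for Cdh2 and 0.000864 for Pkp2. With limma-voom, which called 2.53% of all genes, the adjusted p of these genes lay between 0.0126 for Jup and 0.0469 for Pkp2. At an unadjusted edgeR p under 0.05, 21.6% of all genes passed, 11.5% as lower, and no further gene of the 10 joined the 6. Leaving out single mice kept the direction of all 6 but not their calls: 3 of the 10 genes were called without MLPKO mouse 1, 2 without MLPKO mouse 5, 3 without MLPKO-cRADKO mouse 2, 3 or 4, and 2 without MLPKO-cRADKO mouse 5. The number of genes called over the whole table moved with them, from 369 to as few as 47 without MLPKO mouse 5.

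Levels of different genes can be compared only per length, and for this the counts were divided by exon length and scaled to the same total in each library (TPM). The length was the union of a gene's annotated exons (13052 bases for Pkp2 and 15435 for Ctnna3), which can be longer than any single transcript. The order of the genes and the size of the ratios between them depend on this choice. Des was the most abundant in MLPKO at 2167 ± 580 TPM (SD, n = 5), followed by Dsp at 656 ± 40.0 TPM, Cdh2 at 149 ± 9.07 TPM and Jup at 128 ± 9.28 TPM. Pkp2 (58.1 ± 14.0 TPM), Tjp1 (45.9 ± 4.22 TPM) and Vcl (42.0 ± 3.89 TPM) came next, then Dsc2 (21.6 ± 5.14 TPM), Dsg2 (18.9 ± 5.70 TPM) and Ctnna3 (7.37 ± 0.788 TPM). In this order the neighbours Cdh2 and Jup, Pkp2 and Tjp1, Tjp1 and Vcl, and Dsc2 and Dsg2 overlapped over the mice, and the other neighbours did not. Per length, the linker gene Dsp was above the genes of its membrane partners, Dsg2 and Dsc2, in every mouse.

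In MLPKO-cRADKO the same order held except for 1 exchange. Tjp1 (45.3 ± 3.53 TPM, SD, n = 5) was above Pkp2 (36.0 ± 2.42 TPM) there, without overlap, whereas Pkp2 was the higher on average in MLPKO, with overlap. Des was at 1217 ± 99.0 TPM and Dsp at 462 ± 25.2 TPM. Vcl (29.7 ± 2.04 TPM) overlapped with Dsc2 (23.2 ± 4.13 TPM), which it did not in MLPKO. Cdh2 and Jup (108 ± 8.13 and 96.6 ± 4.70 TPM) overlapped in both genotypes.

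**Figure D3:**
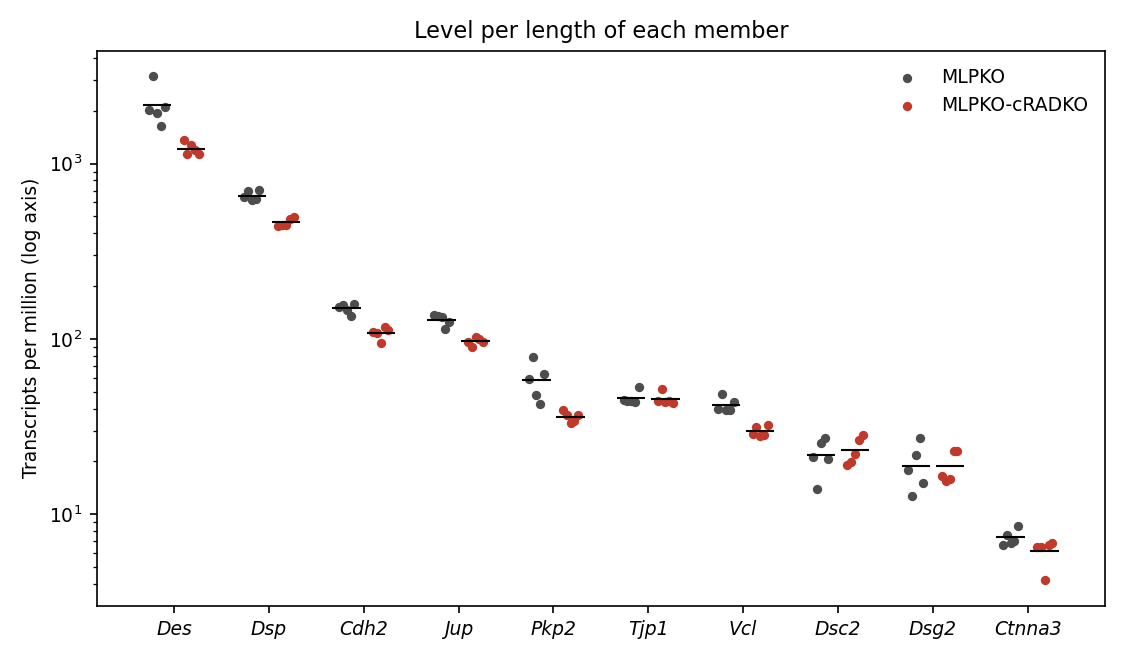
Level per exon length of each gene in TPM (logarithmic axis), 1 point per mouse, grey for MLPKO and red for MLPKO-cRADKO, with a bar at the mean of 5 mice. The mean levels in MLPKO run from 2167 TPM for Des to 7.37 TPM for Ctnna3, and Pkp2 lies above Tjp1 on average in MLPKO and below it in MLPKO-cRADKO.

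For 3 pairs of genes with related roles, the ratio within each mouse does not depend on how libraries were scaled. The ratio of Des to Dsp per length, the filament against its anchor, was 3.14, 4.55, 3.16, 2.61 and 2.97 in MLPKO and 3.09, 2.52, 2.86, 2.48 and 2.28 in MLPKO-cRADKO. Its mean was 3.28 ± 0.740 against 2.65 ± 0.323 (SD, n = 5), a difference in log2 ratio of −0.29 (two-sided exact permutation test over every division of the 10 mice into 5 and 5, p = 0.0635, adjusted p = 0.143 over 3 ratios, smallest p possible 0.00794). The groups overlapped, and the difference did not pass the threshold.

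The ratio of Dsg2 to Cdh2, the desmosomal against the classical cadherin, was 0.118, 0.0808, 0.149, 0.200 and 0.0951 in MLPKO and 0.152, 0.144, 0.166, 0.197 and 0.204 in MLPKO-cRADKO. The difference in log2 ratio was 0.49 (exact permutation test, p = 0.0952, adjusted p = 0.143), with MLPKO mice 3 and 4 inside the range of the other genotype. For Ctnna3 against Ctnna1, the alpha-T and alpha-E forms of alpha-catenin, the mean ratio was 0.0397 ± 0.00243 in MLPKO and 0.0389 ± 0.00693 in MLPKO-cRADKO (SD, n = 5). The log2 difference was −0.048 (exact permutation test, p = 0.778, adjusted p = 0.778), and alpha-E-catenin was the more abundant form in all 10 mice.

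**Figure D4:**
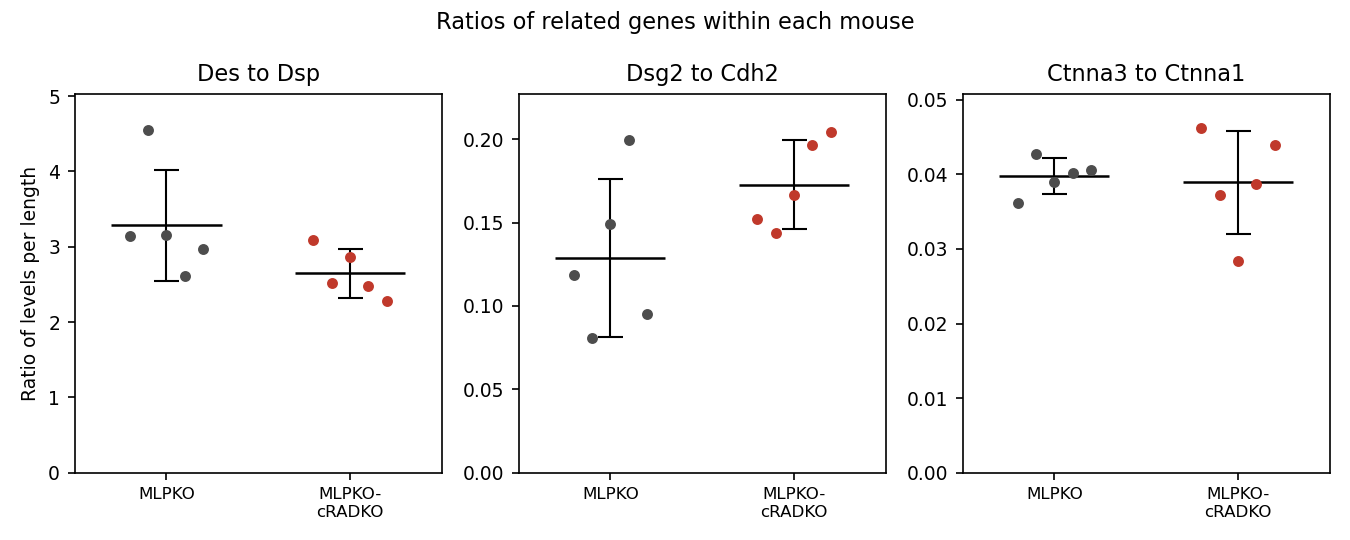
Ratio of the levels per length of Des to Dsp, Dsg2 to Cdh2 and Ctnna3 to Ctnna1 within each mouse (linear axes from 0), 1 point per mouse, with the mean of 5 mice (long bar) and SD (error bar). The genotypes overlap in all 3 panels, and MLPKO mouse 2 has the highest Des to Dsp ratio (4.55) and the lowest Dsg2 to Cdh2 ratio (0.0808).

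Among the other genes of the desmosome and its plaque, 5 of 14 were tested and 0 were called in either direction by edgeR or DESeq2, with 0 at an unadjusted edgeR p under 0.05. The 9 not tested (Dsg1a, Dsg1b, Dsg1c, Dsg3, Dsg4, Dsc1, Dsc3, Pkp1 and Pkp3) had at most 11 counts in any mouse and are known mainly from epidermis and other epithelia. The median log2 fold change of the 5 was −0.042. Tmem43, a nuclear envelope protein linked to arrhythmogenic cardiomyopathy, had a log2 fold change of −0.15 (edgeR adjusted p = 0.277), periplakin (Ppl) 0.50 (edgeR adjusted p = 0.453) and plakophilin-4 (Pkp4) −0.042 (edgeR adjusted p = 0.756).

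Of 23 further adherens junction and area composita genes, 22 were tested, 3 were called lower and 0 higher by edgeR (7 called by DESeq2), and the median log2 fold change was −0.21. Xirp2, an actin-binding repeat protein of the disc, fell from 7453 ± 5670 CPM (SD, n = 5) to 1813 ± 789 CPM, a log2 fold change of −2.04 (edgeR adjusted p = 0.0324). Nrap, a LIM protein that binds actin and vinculin at the disc, had a log2 fold change of −0.81 (edgeR adjusted p = 0.0377), and Ldb3, a Z-disc protein that also reaches the disc, one of −0.55 (edgeR adjusted p = 0.0334). The catenins that bind N-cadherin did not pass the test: Ctnna1 was at −0.18 (edgeR adjusted p = 0.261), Ctnnb1 (beta-catenin) at −0.0074 (edgeR adjusted p = 0.947) and Ctnnd1 (p120-catenin) at 0.073 (edgeR adjusted p = 0.711). Beta-catenin varied little, with 311 ± 7.13 CPM in MLPKO and 310 ± 4.85 CPM in MLPKO-cRADKO (SD, n = 5), while its binding partner Cdh2 was at 75.0% of its MLPKO level.

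Disc channels, gap junction and membrane genes numbered 16, of which 15 were matched and 14 tested, with 2 called lower and 0 higher by edgeR (5 called by DESeq2). Popdc2, a cAMP-binding membrane protein of cardiomyocytes, had a log2 fold change of −0.46 (edgeR adjusted p = 0.0226). Connexin 43 (Gja1), the main ventricular gap junction protein, was at 532 ± 49.0 CPM in MLPKO and 433 ± 60.6 CPM in MLPKO-cRADKO (SD, n = 5), a log2 fold change of −0.30 that missed the threshold with edgeR (adjusted p = 0.111) and not with DESeq2 (adjusted p = 0.0476). Kcnj2, an inward rectifier potassium channel gene, had a log2 fold change of 0.63 (edgeR adjusted p = 0.0755, DESeq2 adjusted p = 0.0124). The median of the 14 genes was −0.12.

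All 14 desmin partners and intermediate filament genes were tested and 0 were called by edgeR (4 by DESeq2, and 6 at an unadjusted edgeR p under 0.05), with 11 of the 14 below 0 and a median log2 fold change of −0.24. Dst, a linker of intermediate filaments, had a log2 fold change of −0.24 (edgeR adjusted p = 0.0521), synemin (Synm), a desmin partner, one of −0.48 (edgeR adjusted p = 0.106) and vimentin (Vim), the intermediate filament of non-muscle cells, one of 0.42 (edgeR adjusted p = 0.0771). Across the 4 lists 5 genes were called with edgeR and 16 with DESeq2. The lists held 0 edgeR calls without MLPKO mouse 1, without MLPKO mouse 5 or without MLPKO-cRADKO mouse 5, 1 without MLPKO-cRADKO mouse 2, 3 or 4, and 14 without MLPKO mouse 4.

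**Figure D5:**
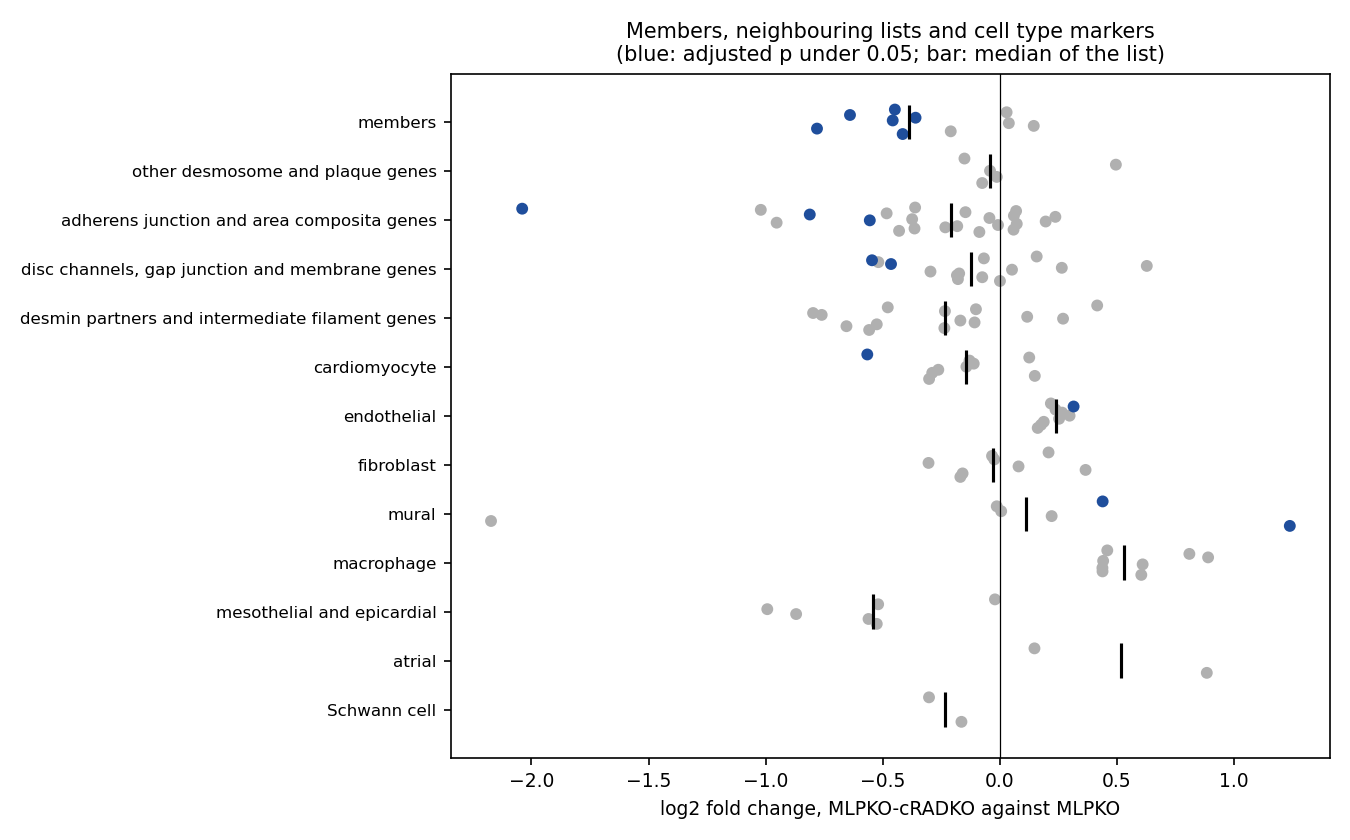
Log2 fold change (MLPKO-cRADKO against MLPKO) of each tested gene in the 10 intercalated disc genes, labelled members, the 4 neighbouring lists and the 8 cell type marker lists, blue where the edgeR adjusted p was under 0.05, with a bar at each list's median. The median is −0.39 for the 10 genes, between −0.24 and −0.042 for the neighbouring lists, −0.14 for the cardiomyocyte markers and 0.24 for the endothelial markers.

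Cell type markers also moved with genotype. Of 9 cardiomyocyte markers 7 had a log2 fold change below 0 and 1 was called (Tnnt2, log2 fold change −0.57, edgeR adjusted p = 0.0185), and their summed level was 80722 to 91069 CPM in MLPKO and 66183 to 81847 CPM in MLPKO-cRADKO. The mean log2 CPM of these 9 genes was 0.17 lower in MLPKO-cRADKO. All 9 endothelial markers were above 0 and 1 was called (Tek, log2 fold change 0.32, edgeR adjusted p = 0.0196), with sums of 774 to 856 CPM and 906 to 1035 CPM. In bulk tissue, fewer cells of a type and less RNA per cell cannot be told apart.

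Of 6 mural markers tested, 2 were called higher (Acta2, log2 fold change 1.24, edgeR adjusted p = 0.0460, and Rgs5, 0.44, edgeR adjusted p = 0.0319), with sums of 496 to 646 CPM and 656 to 880 CPM. The other 4 were not called and did not share a direction, from Cnn1 at −2.17 (edgeR adjusted p = 0.102) to Kcnj8 at 0.22, and the median of the 6 was 0.11, with 2 below 0. The 4 called marker genes and these 2 are named after their values were seen. Macrophage markers were above 0 in 8 of 8 genes, with sums of 177 to 260 CPM in MLPKO and 215 to 466 CPM in MLPKO-cRADKO, and edgeR called 0 of them (4 by DESeq2, and 8 at an unadjusted edgeR p under 0.05). None of the 8 fibroblast markers (1361 to 1995 against 1110 to 2043 CPM) or 6 mesothelial and epicardial markers (23.3 to 51.9 against 17.9 to 38.3 CPM) was called by edgeR. DESeq2 called 0 of the fibroblast and 1 of the mesothelial markers, and 0 and 2 had an unadjusted edgeR p under 0.05. The mesothelial markers were below 0 in 6 of 6 genes, with a median log2 fold change of −0.54. Of the fibroblast markers 5 of 8 were below 0, with a median of −0.028. Atrial markers summed to 2.75 to 6.24 and 2.24 to 24.5 CPM and Schwann cell markers to 2.92 to 5.94 and 2.98 to 6.36 CPM, and the atrial marker Sln had at most 12 counts in any mouse. The part of these shifts in the results for the 10 genes was not tested. The scaling to cardiomyocyte markers given above cannot measure it, because those markers differed between the genotypes themselves. Of the 9 markers, 7 were below 0, with Tnnt2 called, and 2 were above. Under that scaling Vcl (log2 fold change −0.28, edgeR adjusted p = 0.0829) and Pkp2 (−0.48, edgeR adjusted p = 0.0723) also missed the threshold.

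As a description of which genes ran in parallel, the tested gene outside the 10 with the highest Pearson r of log2 CPM over the 10 mice was taken for each of the 10. For Des it was Actr1b (r = 0.988), for Pkp2 Psmb4 (r = 0.992), for Dsp Ktn1 (r = 0.976) and for Jup Lrp11 (r = 0.972). For Cdh2 it was Gphn (r = 0.975), for Vcl Hnrnpk (r = 0.984), for Dsg2 Arel1 (r = 0.979) and for Dsc2 Clec10a (r = 0.984). The values for Ctnna3 (Dnajb9, r = 0.930) and Tjp1 (Glod4, r = 0.960) were the lowest. Each is the highest of all genes tested outside the 10, over the same 10 libraries, which differ in genotype and share their normalization, so no test was made.

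Total counts lay between 33457406 and 49965101 per mouse, and the 10 genes had 735 to 161240 counts in each mouse. Of the counts from 1 to 20, 73.7% to 80.3% were even in each library. Rrad was at 262, 268, 140, 163 and 282 CPM in MLPKO and at 196, 135, 202, 146 and 176 CPM in MLPKO-cRADKO (log2 fold change −0.38, edgeR adjusted p = 0.290), and Csrp3, the MLP gene, had 1009 to 3261 and 691 to 1177 CPM. Counts over the whole gene, from all cells of the tissue, therefore did not separate the genotypes at Rrad. They also did not show the MLP knockout at Csrp3, which was counted in all 10 mice. Csrp3 had a log2 fold change of −1.08, which missed the threshold with edgeR (adjusted p = 0.0666) and not with DESeq2 (adjusted p = 0.0362). In these counts, both alleles rest on the labels. The study itself reported, by western blot, that RAD protein was lost in MLPKO-cRADKO hearts 1 month after induction. The mice are separate animals, and p-values measure the spread between them.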

How the data were processed

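Bulk RNA-seq was made from 5 MLPKO and 5 MLPKO-cRADKO mice. Reads were mapped by the authors with STAR (genome GRCm39) and summed over genes by featureCounts (versions, strand and read-pair settings are not given in the sources used here), and the deposited values are raw counts. The table held 60676 genes, of which 3491 had no value, and 0 columns of other samples. Groups came from the sample labels. A gene entered the tests if its count exceeded 10 in 6 or more of the 10 mice, and names starting with Gm and a number, or holding Rik, were left out, as in the study's methods. Library sizes were scaled with TMM, and the genotype difference was tested by edgeR 4.0.16 (quasi-likelihood, R 4.3.3) with Benjamini-Hochberg adjustment over 13452 genes. DESeq2 1.42.0, the study's own tool, and limma-voom (limma 3.58.1) were alternatives. The edgeR, DESeq2 and limma steps were tested on simulated data. Symbols and positions came from GENCODE M39 for GRCm39 (56629 of 57185 genes matched), and exon length, from the union of a gene's exons, gave the TPM.

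The 10 genes, the neighbouring lists and the markers were chosen with earlier results of these data known, so the share of the 10 genes called is not free of selection. Named are the 10 genes, in each neighbouring list every gene called (or, with fewer than 3, the next by p up to 3), Ctnna1, Ctnnb1, Ctnnd1, Gja1, Rrad, Csrp3 and the gene most alike to each of the 10. Bves was not matched to a row. Some single genes of the lists are not reported here. Further settings tried were upper-quartile and RLE size factors, a robust fit, no filter on low counts, filterByExpr, Gm and Rik genes kept, the mouse number as a block and leaving out each mouse.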

Additional observations from a re-analysis of the deposited data

Results flagged for a closer look

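In 20 groups of 5 values (10 genes in each genotype), 1 mouse lay far from the others in 4, by Dixon's test at the 95% level, and chance alone flags about 1 in 20 groups. Des was at 2382 CPM in MLPKO-cRADKO mouse 1, with the next mouse at 2030 CPM. MLPKO-cRADKO mouse 3 was low for Cdh2, at 256 CPM against 313 CPM in the next mouse, and for Ctnna3, at 20.1 CPM against 33.6 CPM. It was also the lowest mouse of its group in 7 of the 10 genes. Tjp1 was at 138 CPM in MLPKO mouse 5, with the next mouse at 113 CPM. The cause was not tested.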

How the results depend on the processing

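The count of 6 genes called lower among the 10 was 6 under all 9 other settings of tool, normalization, filter and block, and 2 after scaling to 9 cardiomyocyte markers, chosen after seeing the data. Leaving out each mouse gave 2 to 6 of the 10 genes. The 6 called genes kept their direction in every alternative run. Genes called over the table were 369, against 1298 with DESeq2, 1080 with the marker scaling and 47 to 828 with 1 mouse left out. Calls in the neighbouring lists were 5, against 16 with DESeq2 and 0 to 14 with 1 mouse left out. The log2 fold change of Dsg2 ran from −0.076 to 0.22 with 1 mouse left out and was below 0 without MLPKO mouse 2 (−0.076), MLPKO mouse 5 (−0.024), MLPKO-cRADKO mouse 4 (−0.043) or MLPKO-cRADKO mouse 5 (−0.036). That of Tjp1 ran from −0.027 to 0.10 and was below 0 without MLPKO-cRADKO mouse 2. With 1 mouse left out, the difference in log2 ratio ran from −0.37 to −0.17 for Des to Dsp, from 0.34 to 0.66 for Dsg2 to Cdh2 and from −0.11 to 0.061 for Ctnna3 to Ctnna1, which turned positive without MLPKO-cRADKO mouse 3. The unadjusted exact p of Des to Dsp was 0.0317 without MLPKO mouse 4 and 0.0476 without MLPKO-cRADKO mouse 1, and that of Dsg2 to Cdh2 was 0.0159 without MLPKO mouse 4. The causes were not tested. Mouse numbers are shared between genotypes but belong to different animals. With the replicate block, 6 of the 10 genes, 281 genes in all and 5 in the neighbouring lists were called. Same-numbered mice had correlations of −0.042 to 0.15 in their deviations from the group means, and 2 of 5 correlated best with their own number. These few correlations do not show that the numbers pair the mice and are too few to exclude it. Whether depth or the number of mice limited the calls was not tested.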
